A study of Mus musculus with 12 samples.

Results

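The Siglecs, sialic acid-binding lectins of the immunoglobulin superfamily, were followed in hippocampus and ileum of mice with and without FIRE, the intronic enhancer of *Csf1r*. The members were *Siglech*, *Siglec1*, *Siglecf*, *Siglece*, *Siglecg* and *Cd22*, taken as the transcript clusters (the sets of probes that an array sums into 1 value for a gene) whose gene symbol is exactly that name. All 6 were found, each with 1 transcript cluster, among 18820 genes with a cluster of their own. Another 3 measured Siglec genes, *Cd33*, *Mag* and *Siglec15*, were set beside them.

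RNA came from 12 samples of mice of mixed C57BL/6J/CBA strain, aged 6 weeks and perfused with saline. There were 3 FIRE -/- and 3 FIRE +/+ hippocampi, and 3 FIRE -/- and 3 FIRE +/+ pieces of ileum that by the labels and methods included a Peyer's patch, the lymphoid follicles of the gut wall. FIRE -/- mice are homozygous for a CRISPR deletion of the enhancer in every cell, from a line founded by 1 male that was bred to C57BL/6J, and FIRE +/+ mice have the intact enhancer. Each sample was hybridised to its own array, and the sources used here do not say whether the same mice gave both tissues. The unit throughout is the log2 signal after robust multi-array averaging (RMA), so a difference of 1 is a doubling. Calls rest on limma with Benjamini-Hochberg adjustment over 21218 clusters and a threshold of 0.05, and p-values measure only the spread between these samples.

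Siglecs are surface receptors, found mostly on white blood cells, that read sialic acids on the glycans of other cells and of their own membrane. Most carry cytoplasmic inhibitory motifs (ITIMs) that recruit the phosphatases SHP1 and SHP2, encoded by *Ptpn6* and *Ptpn11*, and so dampen activating receptors. A few lack these motifs and pair with the adaptor DAP12, encoded by *Tyrobp*, whose activating motif recruits the kinase SYK. In the mouse brain Siglec-H is a familiar marker of microglia, and in lymphoid tissue it marks plasmacytoid dendritic cells. Siglec-E is an inhibitory receptor of neutrophils, macrophages and microglia, Siglec-1 (CD169, sialoadhesin) an adhesion receptor of resident macrophages, Siglec-F a receptor of eosinophils, and Siglec-G and CD22 are inhibitors of the B cell receptor.

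The arrays are named by the code in their titles. Arrays of hippocampus correlated in pairs with r from 0.991 to 0.996 and those of ileum with r from 0.981 to 0.992. *Csf1r* averaged 3.64 ± 0.06 in FIRE -/- and 8.27 ± 0.1 in FIRE +/+ hippocampus, and 6.94 ± 0.55 in FIRE -/- and 7.66 ± 0.44 in FIRE +/+ ileum (SD, n = 3 each). In hippocampus 6 neuron markers averaged 10.56 to 10.74 per array, and in ileum 6 epithelial markers averaged 10.17 to 11.24. The same epithelial genes read 2.12 to 4.51 in hippocampus, so a signal in that range is not taken as expression there. Of the 12 arrays, B09, a FIRE -/- hippocampus labelled female, had *Xist* at 2.44 and *Eif2s3y* at 6.18, like the arrays of males, and the other 11 matched their labelled sex. The ileum arrays F09 (FIRE -/-) and D09 (FIRE +/+) had B cell markers averaging 7.84 and 7.76, against 3.73 to 4.05 on the other 4, where *Ms4a1*, the gene of CD20, read 2.14 to 2.68. How much follicle those 4 pieces held cannot be stated from the label. All FIRE +/+ hippocampus arrays have a code ending in 07, whereas A09 and B09 of the FIRE -/- arrays end in 09, and what the code stands for is not stated. Every ileum array ends in 09, so in FIRE +/+ mice tissue and code end cannot be told apart.

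*Siglech* was the member with the largest fall in hippocampus. It read 3.45, 3.19 and 3.36 in FIRE -/- hippocampus, against 5.84, 5.87 and 5.97 in FIRE +/+ hippocampus. The genotypes lay far apart, and the arrays within each stayed close together. The log2 fold change was -2.56 (SE 0.1, 95% confidence interval -2.79 to -2.34, limma adjusted p = 2.28e-05), a signal at least 5.91-fold lower, since the FIRE -/- values lie within the range of genes that the hippocampus should lack. Leaving out each array in turn gave -2.62 to -2.49, and the call held each time.

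*Siglece* fell less. It read 2.84, 3.19 and 2.96 in FIRE -/- hippocampus, against 3.95, 3.93 and 3.94 in FIRE +/+ hippocampus, with no overlap. The log2 fold change was -0.94 (SE 0.11, 95% confidence interval -1.19 to -0.69, limma adjusted p = 0.00757). All 6 values lie in the range of genes that the hippocampus should lack, so no fold is given. The call ended without H07 (-0.93, adjusted p = 0.0573), with the end of the array code as a covariate (-0.97, adjusted p = 0.157), with all 12 arrays in 1 fit (adjusted p = 1) and in an analysis of variance without moderation (adjusted p = 0.237). H07, the FIRE -/- array with the same code end as the FIRE +/+ arrays, read 2.96 for *Siglece* and 3.36 for *Siglech*, both below every FIRE +/+ array.

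Thus 2 of 6 members were called lower in FIRE -/- hippocampus, where 0.448% of all clusters were. *Siglecg* read 3.24, 3.41 and 3.21 in FIRE -/- hippocampus, against 3.51, 3.56 and 3.92 in FIRE +/+ hippocampus. Its genotypes did not overlap, but the difference of -0.38 (SE 0.13) did not pass (adjusted p = 0.847). In 3 of 6 members every FIRE -/- array therefore lay below every FIRE +/+ array, which was so for 5.2% of all clusters. The values of *Siglec1*, *Siglecf* and *Cd22* overlapped between genotypes, with differences of 0.12 (SE 0.09), -0.03 (SE 0.09) and 0.06 (SE 0.16). All their values lie in the range not taken as expression in hippocampus. For *Siglecf* the 95% confidence interval ran from -0.24 to 0.19 and for *Cd22* from -0.31 to 0.42. The median difference of the 6 members was -0.2, beside 0.0077 over all clusters.

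**Figure D1:**
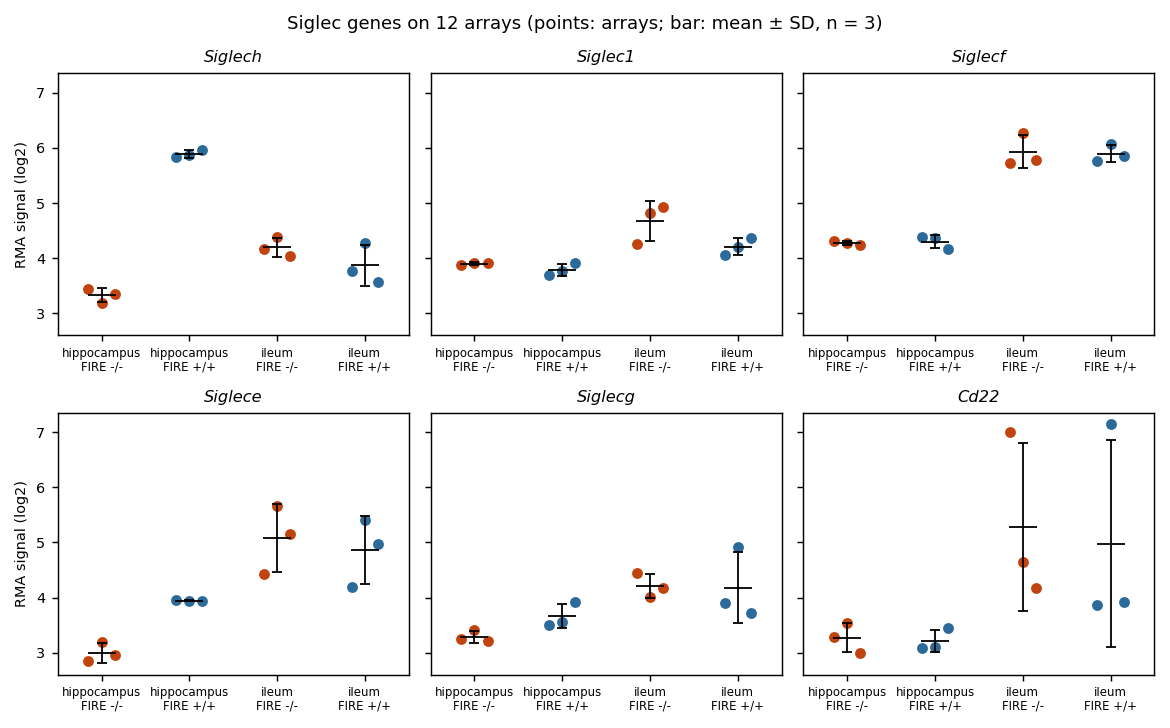
RMA log2 signal of the 6 Siglec genes in hippocampus and ileum of FIRE -/- (orange) and FIRE +/+ (blue) mice, with a point for each array and bars for the mean and SD (n = 3). *Siglech* averaged 3.33 in FIRE -/- and 5.89 in FIRE +/+ hippocampus, and *Cd22* had 1 array near 7 in each ileum group.

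*Cd33*, the gene of another Siglec of myeloid cells, fell as well. It read 4.32, 3.83 and 3.82 in FIRE -/- hippocampus, against 6.37, 6.69 and 6.29 in FIRE +/+ hippocampus. No FIRE -/- array came near a FIRE +/+ one. The log2 fold change was -2.46 (SE 0.17, adjusted p = 0.000425), or at least 5.51-fold lower, as the FIRE -/- values lie in the range not taken as expression, and among the alternatives that kept the gene it missed the threshold only in the analysis of variance without moderation (adjusted p = 0.123). *Mag*, the Siglec of myelin made by oligodendrocytes, averaged 10.29 ± 0.11 in FIRE -/- and 10.26 ± 0.08 in FIRE +/+ hippocampus. Its difference was 0.02 (95% confidence interval -0.2 to 0.25). *Siglec15*, known from osteoclasts, had a difference of -0.06 (95% confidence interval -0.34 to 0.23).

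*Siglech*, *Siglece* and *Cd33* lie on chromosome 7, as do *Siglecf*, *Siglecg*, *Cd22* and *Mag*, whereas *Siglec1* lies on chromosome 2. Since *Siglech*, *Siglece* and *Cd33* fell together in hippocampus, and *Siglecf* shares a stretch with *Cd33*, the 250 bases before the start of these 4 genes are shown. They are from RefSeq (GRCm38.p6), which had a window for 5 of 6 members, and are written 5′ to 3′ on the strand of the gene. Capitals mark GAGGAA, a core of sites for the myeloid factor PU.1, or its reverse complement TTCCTC.
Siglech (chr7:55767934-55768183, plus strand): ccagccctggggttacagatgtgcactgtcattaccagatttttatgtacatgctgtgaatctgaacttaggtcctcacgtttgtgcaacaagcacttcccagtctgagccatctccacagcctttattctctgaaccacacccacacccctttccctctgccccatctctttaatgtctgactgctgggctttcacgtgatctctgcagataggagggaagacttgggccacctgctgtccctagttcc
Siglece (chr7:43660162-43660411, minus strand): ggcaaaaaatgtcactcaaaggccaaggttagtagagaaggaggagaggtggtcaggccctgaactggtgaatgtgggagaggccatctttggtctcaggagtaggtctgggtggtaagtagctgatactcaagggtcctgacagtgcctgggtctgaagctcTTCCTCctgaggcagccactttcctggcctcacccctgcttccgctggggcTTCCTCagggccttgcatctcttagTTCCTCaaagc
Cd33 (chr7:43533172-43533421, minus strand): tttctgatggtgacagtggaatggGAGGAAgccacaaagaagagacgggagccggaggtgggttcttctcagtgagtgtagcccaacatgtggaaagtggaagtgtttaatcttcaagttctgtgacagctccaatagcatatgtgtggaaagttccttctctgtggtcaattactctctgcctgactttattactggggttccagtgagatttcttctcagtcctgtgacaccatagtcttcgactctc
Siglecf (chr7:43351091-43351340, plus strand): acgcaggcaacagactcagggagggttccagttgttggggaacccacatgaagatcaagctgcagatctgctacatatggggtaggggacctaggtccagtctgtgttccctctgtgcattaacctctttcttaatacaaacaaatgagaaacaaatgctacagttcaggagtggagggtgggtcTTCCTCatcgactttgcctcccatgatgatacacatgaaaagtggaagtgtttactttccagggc
These letters stood in 23.3% of 32851 such windows of all genes, on either strand. The *Siglece* window held 3 matches, which began 87, 36 and 11 bases before the start, the *Cd33* window 1, at 226 bases, and the *Siglecf* window 1, at 65 bases. The *Siglech* window held 0. Of 7 Siglec genes with at least 1 window 5 held a match, some of them with several windows, and nothing about the factor follows from a match or its absence. Windows of different Siglec genes were compared in pairs, with 1 window for each gene. The longest run of letters in common was the 16 bases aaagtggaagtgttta, in *Cd33* and *Siglecf*.

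The partners of these receptors were read in the same comparison. *Tyrobp*, the adaptor through which Siglec-H signals, read 3.8, 3.68 and 3.4 in FIRE -/- hippocampus, against 5.85, 5.89 and 5.45 in FIRE +/+ hippocampus. The genotypes were again wide apart, with a log2 fold change of -2.11 (SE 0.15, adjusted p = 0.00059). Of 7 genes of DAP12 signalling 3 fell, the others being *Trem2*, a lipid receptor that also uses DAP12 (-2.27), and *Vav1*, an exchange factor (-0.88). The remaining 4 did not pass, among them *Syk* at -0.49 (adjusted p = 0.387) and *Hcst*, the gene of the related adaptor DAP10, at -0.0063. The median over the 7 was -0.49, and 0.448% of all clusters fell. *Vav1*, *Syk*, *Btk* and *Hcst* read 4.37 at most in hippocampus, in the range not taken as expression there. The FIRE -/- values of *Tyrobp*, *Trem2* and *Plcg2*, 4.49 at most, lay in it too.

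Of 9 measured genes listed for ITIM signalling 3 fell and 6 did not pass, where 0.448% of all clusters fell. *Syk* stands in this list and in that of DAP12, and *Ptprc* is not particular to ITIMs. *Inpp5d*, which encodes the lipid phosphatase SHIP1, averaged 4.21 ± 0.05 in FIRE -/- and 6.22 ± 0.18 in FIRE +/+ hippocampus (log2 fold change -2.01, adjusted p = 0.000109). *Ptpn6*, for SHP1, fell by 0.84 (adjusted p = 0.037) and *Ptprc*, for the leukocyte phosphatase CD45, by 0.75 (adjusted p = 0.0143). The FIRE -/- values of these 3 genes, 4.27 at most, lay in the range not taken as expression in hippocampus. *Ptprc* read only 4.37 to 4.62 in FIRE +/+ hippocampus, at the edge of that range. The paper, by its own analysis, reports *Ptprc* as not significantly affected there. *Ptpn11*, for SHP2, had a difference of 0.11 and the kinase gene *Fyn* one of 0.0024, and both are known from many cell types. The median of the 9 was -0.26.

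**Figure D2:**
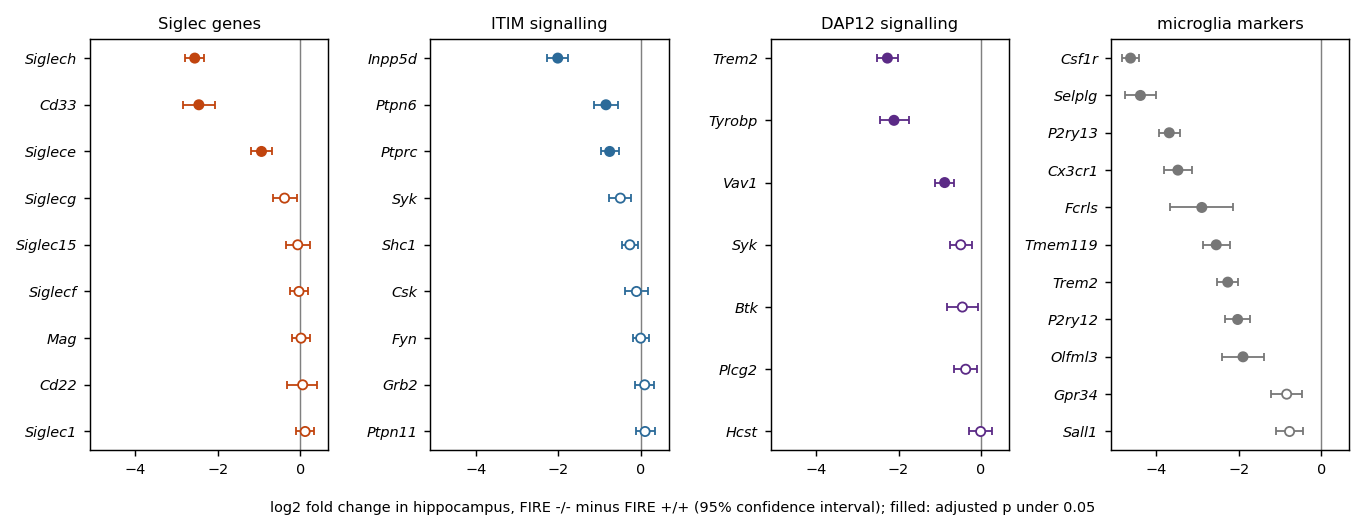
Log2 fold changes in hippocampus, FIRE -/- minus FIRE +/+, with 95% confidence intervals, of the Siglec genes, ITIM signalling, DAP12 signalling and microglia markers. Filled points passed the adjusted threshold of 0.05, among them *Siglech* at -2.56, *Cd33* at -2.46 and *Tyrobp* at -2.11.

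Markers of microglia moved with these genes. Of 11 measured, 9 fell, with a median log2 fold change of -2.55, and their mean per array was 3.99 to 4.14 in FIRE -/- hippocampus and 6.59 to 6.87 in FIRE +/+ hippocampus. Among those that fell were *Csf1r*, the gene of the deleted enhancer, and *Trem2*, already counted above for DAP12. The list is thus not separate from the deletion or from the partners. In whole tissue, fewer cells of a type and less RNA per cell cannot be told apart, and the part of the microglia and macrophage markers in the falls of *Siglech*, *Siglece* and *Cd33* was not tested. Of 8 general macrophage markers 4 fell, *Csf1r* among them, and their mean per array was 4.45 to 4.54 in FIRE -/- and 5.76 to 5.78 in FIRE +/+ hippocampus. None of 8 border macrophage markers passed (mean per array 3.59 to 3.82 in FIRE -/- and 3.57 to 3.76 in FIRE +/+), nor did any of 10 B cell markers (3.06 to 3.19 in FIRE -/- and 3.22 to 3.44 in FIRE +/+). Of 9 markers of plasmacytoid dendritic cells, the other home of Siglec-H, *Irf8* alone fell (-1.66, adjusted p = 0.000325). That gene is known from microglia too, and the source of its signal was not tested. *Bst2* at -0.34 and *Ccr9* at 0.4 did not pass. *Tcf4* averaged 10.78 in FIRE -/- and 10.8 in FIRE +/+ hippocampus, so the list is not particular to that cell in brain. Of 7 neutrophil markers *Csf3r* alone fell (-1.19, adjusted p = 0.00117). *Ngp* lay at -0.55 and did not pass (adjusted p = 0.242), and *S100a8* and *S100a9* had differences of 0.09 and -0.09. None of the 7 read above 4.13 in hippocampus, so none is taken as expressed there. Their flat or lower values therefore say little about that cell.

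Over the 12 arrays *Siglech* was most alike to *Gpr84* (Pearson r = 0.945), *Trem2* (0.939) and the microglial chemokine receptor gene *Cx3cr1* (0.934). Over the 6 hippocampus arrays it was most alike to *Nckap1l* (0.999), *Cx3cr1* (0.998) and *Ctss* (0.998). These values are a description: the arrays share 4 groups, and any gene that separates the groups in the same way scores high. *Siglech* and *Siglece* had r = 0.96 over the 6 hippocampus arrays, and *Siglech* and *Cd33* r = 0.99.

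In ileum no member was called in either direction. *Siglech* read 4.16, 4.39 and 4.04 in FIRE -/- ileum, against 3.76, 4.28 and 3.57 in FIRE +/+ ileum. Its difference was 0.33 (95% confidence interval -0.14 to 0.8, adjusted p = 0.999). The FIRE +/+ values lie in the range not taken as expression in hippocampus, so ileum left little room for a fall. *Siglec1* read 4.26, 4.82 and 4.93 in FIRE -/- ileum, against 4.05, 4.21 and 4.37 in FIRE +/+ ileum. It had the largest difference of the 6, 0.46 (95% confidence interval 0 to 0.92, adjusted p = 0.999), and F09 lay among the FIRE +/+ arrays.

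*Siglece* read 4.43, 5.66 and 5.15 in FIRE -/- ileum, against 4.19, 5.41 and 4.98 in FIRE +/+ ileum. Each genotype spread over more than 1 unit, and the difference was 0.22 (95% confidence interval -0.71 to 1.14). *Siglecf* read 5.73, 6.28 and 5.79 in FIRE -/- ileum, against 5.76, 6.07 and 5.86 in FIRE +/+ ileum, a difference of 0.04 (95% confidence interval -0.38 to 0.45). Of the eosinophil markers, *Prg2* averaged 2.79 in FIRE -/- and 2.69 in FIRE +/+ ileum and *Epx* 2.78 in FIRE -/- and 2.8 in FIRE +/+ ileum, beside group means of 2.59 to 2.9 for both in hippocampus. *Ccr3* averaged 3.76 in FIRE -/- and 3.7 in FIRE +/+ ileum and *Alox15* 4.96 in FIRE -/- and 4.59 in FIRE +/+ ileum, and both were lower in hippocampus in each genotype. None of 5 eosinophil markers passed between genotypes. Of 8 markers of tuft cells, another cell type of the gut, none passed between genotypes in ileum. In each genotype 6 of these 8 were lower and 1 higher in hippocampus than in ileum. Of all clusters, 32% were lower in FIRE -/- and 29.4% in FIRE +/+ mice. Which cells gave the *Siglecf* signal was not tested. Over the 6 ileum arrays *Siglecf* was most alike to *Csf2ra* (r = 0.991), *E130006D01Rik* (0.984) and *Prr11* (0.983), of 16009 genes compared. Over all 12 arrays it was most alike to *Zfp36l2* (0.995), *Wdr46* (0.994) and *Raver1* (0.994). These values are a description and point to no cell type.

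*Cd22* and *Siglecg* split the ileum by array and not by genotype. *Cd22* read 7.01, 4.65 and 4.18 in FIRE -/- ileum, against 3.86, 7.14 and 3.92 in FIRE +/+ ileum. The high arrays were F09 and D09, those rich in B cell markers. The difference of 0.31 had a 95% confidence interval of -2.19 to 2.8, which leaves its direction undetermined, and it was -0.56 without F09, 1.39 without D09 and 0.24 with the mean of the B cell markers as a covariate. *Siglecg* read 4.44, 4.01 and 4.18 in FIRE -/- ileum, against 3.9, 4.91 and 3.72 in FIRE +/+ ileum, again highest on F09 and D09, and its difference was 0.03 (SE 0.31). Across the 6 ileum arrays, which fall into a group of 2 and one of 4, Pearson's r with the mean of 10 B cell markers was 0.99 for *Cd22* and 0.86 for *Siglecg*, with no test. For *Siglecf* it was -0.01 and for *Siglece* -0.04. The genes most alike to *Cd22* over all 12 arrays were *Slamf6* (0.991), *Grap2* (0.99) and *Pou2af1* (0.989), the last the gene of a B cell coactivator.

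**Figure D3:**
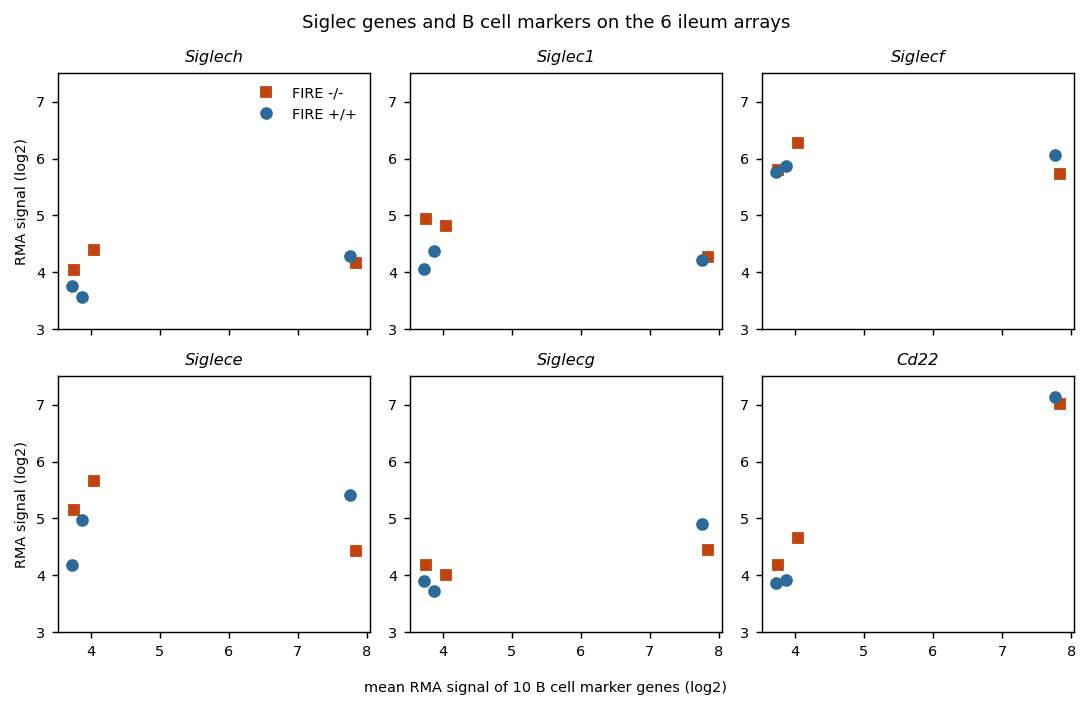
RMA log2 signal of each Siglec gene against the mean RMA log2 signal of 10 B cell markers on the 6 ileum arrays, FIRE -/- as orange squares and FIRE +/+ as blue circles. F09 and D09 lie at the right, at 7.84 and 7.76, where *Cd22* reads 7.01 and 7.14.

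Without D09 and F09 together, which leaves 2 arrays per genotype, all 6 differences lay above 0 and none passed (adjusted p from 0.913 to 0.916). *Siglece* was then at 0.81, *Siglec1* at 0.66, *Siglech* at 0.55, *Cd22* at 0.53, *Siglecg* at 0.28 and *Siglecf* at 0.23. With all arrays the median of the 6 was 0.26, beside -0.0099 over all clusters, and in 0 of 6 members were the genotypes apart, where 8.04% of all clusters had genotypes that did not overlap in either direction. The sign of *Siglece*, *Siglecf*, *Siglecg* and *Cd22* turned when single arrays were left out. Limma called 0 of 21218 clusters in ileum, with 327 lower and 393 higher at an unadjusted p under 0.05. *Cd33* had a difference of 0.1 (SE 0.3) and *Tyrobp* one of 0.18 (SE 0.21).

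The genotype difference of *Siglech* was itself different in the tissues. It was -2.56 in hippocampus and 0.33 in ileum, and the first minus the second was -2.89 (SE 0.23, limma adjusted p = 0.000269). The FIRE +/+ mean was 5.89 in hippocampus and 3.87 in ileum, within the range not taken as expression in hippocampus, so a like fall could not have been seen in ileum. Of the 6 members it was the 1 called, where 0.0895% of all clusters were called in that direction. *Siglece* differed by -1.16 (SE 0.44, adjusted p = 1), and the other members by -0.41 to -0.06. *Cd33* differed by -2.57 (SE 0.37, adjusted p = 0.0282). That call was lost without B09 (-2.49), H07 (-2.48), E07 (-2.61), F07 (-2.45), G07 (-2.65), G09 (-2.4), H09 (-2.67) or E09 (-2.61), at adjusted p between 0.0508 and 0.124. *Tyrobp* differed by -2.29 (adjusted p = 0.00805) and *Trem2* by -2.27 (adjusted p = 0.000317).

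**Figure D4:**
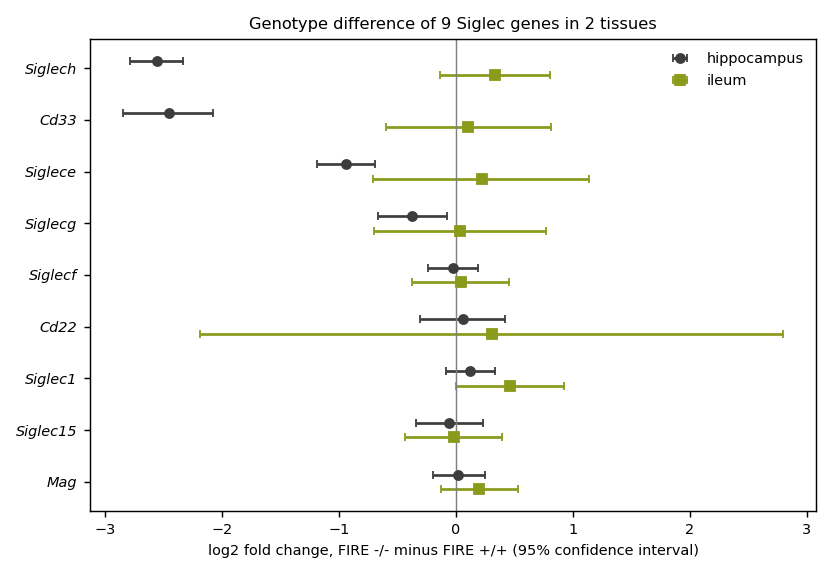
Log2 fold change, FIRE -/- minus FIRE +/+, of 9 Siglec genes in hippocampus (dark circles) and ileum (green squares), with 95% confidence intervals. *Siglech*, *Cd33* and *Siglece* lie at -2.56, -2.46 and -0.94 in hippocampus, while every interval in ileum reaches 0, that of *Siglec1* at its lower end.

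Between tissues all 6 members were lower in hippocampus than in ileum of FIRE -/- mice, where 32% of all clusters were lower and 29.7% higher. *Siglech* averaged 3.33 ± 0.13 in hippocampus and 4.2 ± 0.18 in ileum (SD, n = 3 each; log2 fold change -0.87, SE 0.12, adjusted p = 0.000498), both in the range not taken as expression in hippocampus. *Siglece* lay at least 4.23-fold lower in hippocampus (-2.08, adjusted p = 0.000402), and *Siglecf* at least 3.16-fold lower (-1.66, adjusted p = 4.1e-05), with hippocampus values in the range not taken as expression. *Siglecg* (-0.92, adjusted p = 0.000498) and *Siglec1* (-0.77, adjusted p = 0.00594) passed as well. The *Siglecg* values of both tissues, 4.44 at most, lay in that range, as did the hippocampus values of *Siglec1*. *Cd22* passed at -2.01 (adjusted p = 0.0317) but not without A09 (-2.01), B09 (-2.14) or H07 (-1.88), nor with trend and robust shrinkage (adjusted p = 0.075), without moderation (adjusted p = 0.13), or with all clusters tested or all 12 arrays in 1 fit (adjusted p = 0.0545 each), and without F09, rich in B cell markers, it was -1.15 (adjusted p = 0.00218).

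In FIRE +/+ mice the family divided between tissues, whose arrays also differ throughout in the end of their code. *Siglech* alone of the 6 was higher in hippocampus, averaging 5.89 ± 0.07 there and 3.87 ± 0.37 in ileum (SD, n = 3 each; log2 fold change 2.03, SE 0.18, adjusted p = 3.31e-05, at least 4.07-fold). The order of its group means was thus hippocampus of FIRE +/+ mice, ileum of FIRE -/- mice, ileum of FIRE +/+ mice and hippocampus of FIRE -/- mice, of which the 2 ileum groups did not differ beyond their spread. *Siglecf* averaged 4.3 ± 0.12 in hippocampus and 5.9 ± 0.16 in ileum, at least 3.03-fold lower in hippocampus (-1.6, SE 0.13, adjusted p = 1.52e-05). *Siglece* (-0.92, adjusted p = 0.0225) and *Siglec1* (-0.43, adjusted p = 0.0204) were lower too. The *Siglec1* values of both tissues, 4.37 at most, lay in the range not taken as expression in hippocampus. So did the hippocampus values of *Siglece*. *Siglecg* (-0.51, adjusted p = 0.192) and *Cd22* (-1.76, adjusted p = 0.1) did not pass. The members thus counted 3 lower and 1 higher in hippocampus, where 29.4% of all clusters were lower and 27.1% higher. *Cd33* was lower in hippocampus of FIRE -/- mice (-2.39, adjusted p = 1.75e-05), and in FIRE +/+ mice it differed by 0.18 (95% confidence interval -0.47 to 0.83).

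Single arrays decided some of the calls in FIRE +/+ mice. Without D09, the array rich in B cell markers, *Cd22* was at -0.68 and passed (adjusted p = 0.00697), and *Siglecg* was at -0.15. The values of both genes that remained lay in the range not taken as expression in hippocampus. *Siglec1* did not pass without E07 (-0.38), F07 (-0.41) or E09 (-0.35), and *Siglece* did not pass without E07 (-0.93), F07 (-0.92), G07 (-0.92) or E09 (-0.86). The calls of *Siglech* and *Siglecf* held without each array. The tissues share their arrays with the genotype comparisons, so the values of the same gene in both are not separate evidence.

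*Mag* showed the opposite arrangement. It averaged 10.29 ± 0.11 in hippocampus and 3.47 ± 0.21 in ileum of FIRE -/- mice (SD, n = 3 each), a log2 fold change of 6.82 (SE 0.13, adjusted p = 1.41e-08) or at least 113-fold. In FIRE +/+ mice the difference was 7 (SE 0.11), or at least 128-fold. *Siglec15* did not pass in either genotype.

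The genes that make and remove the ligands were compared as well. Sialic acid is made in the cytosol, activated in the nucleus, carried into the Golgi and added to glycans by sialyltransferases, and sialidases take it off again. By genotype none of 6 synthesis genes, 18 sialyltransferases or 4 sialidases passed in hippocampus, with medians of -0.02, 0.05 and 0.07, and none passed in ileum, with medians of -0.14, 0.01 and -0.15. Between tissues they did differ. In FIRE -/- mice 13 of 18 sialyltransferases were higher and 3 lower in hippocampus, and in FIRE +/+ mice 13 were higher and 1 lower. Of all clusters, 29.7% were higher and 32% lower in FIRE -/- mice, and 27.1% higher and 29.4% lower in FIRE +/+ mice.

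*St6galnac5*, a ganglioside enzyme of the brain, averaged 10.04 ± 0.11 in hippocampus and 2.95 ± 0.14 in ileum of FIRE +/+ mice, a difference of 7.09 (adjusted p = 1.16e-08). *St8sia5*, another ganglioside enzyme, stood at 5.69, *St6gal2* at 5.5 and *St8sia3* at 5.07. *St3gal4* went the other way, averaging 6.54 ± 0.07 in hippocampus and 11.25 ± 0.18 in ileum (-4.71, adjusted p = 3.99e-08). *St6gal1*, whose enzyme makes the sialylated glycans that CD22 binds, did not pass at 0.22 (SE 0.33).

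Of the synthesis genes, 4 of 6 were lower in hippocampus of FIRE -/- mice and 5 of 6 in FIRE +/+ mice. The shares of all clusters that were lower there were 32% and 29.4%. *Gne*, for the enzyme that starts the pathway, was at -1.18 and *Nans*, for the synthase, at -2.45 in FIRE +/+ mice. *Cmah*, which makes the N-glycolyl form of sialic acid, was at -1.84, with ileum values of 4.19 and 4.28 beside 6.24 on D09, the array rich in B cell markers. Of the sialidases, *Neu1*, which acts in lysosomes, was lower in hippocampus (-1.46 in FIRE -/- mice and -2.02 in FIRE +/+ mice), and *Neu4* was higher (1.64 in FIRE -/- mice and 1.4 in FIRE +/+ mice).

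**Figure D5:**
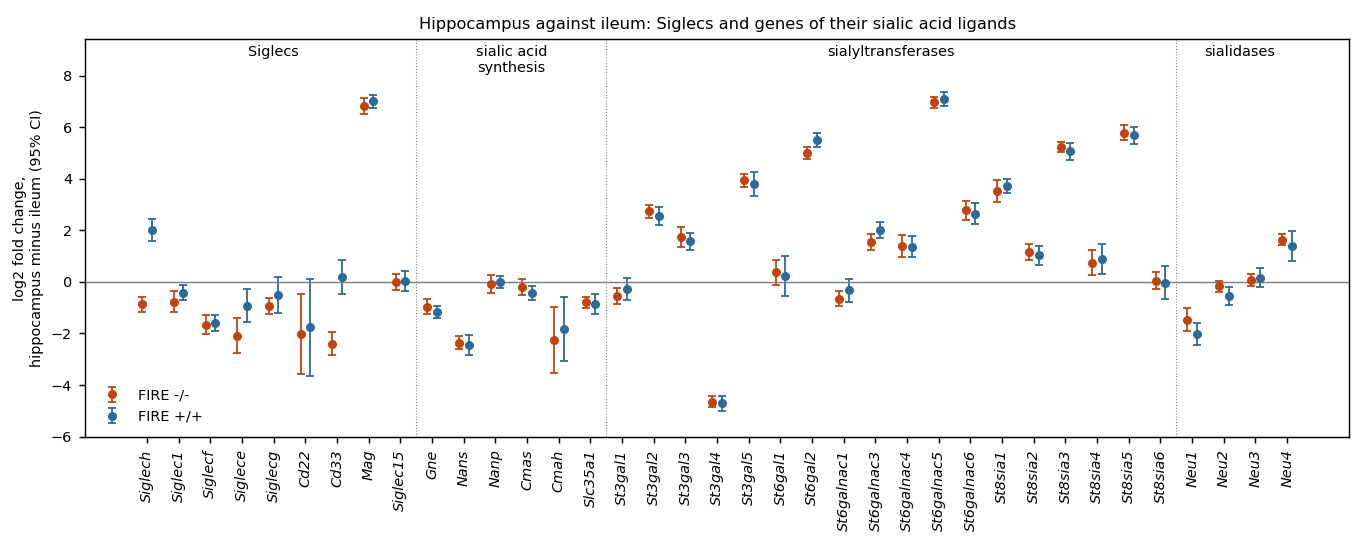
Log2 fold change, hippocampus minus ileum, in FIRE -/- (orange) and FIRE +/+ (blue) mice, with 95% confidence intervals, of Siglec genes, sialic acid synthesis genes, sialyltransferases and sialidases. *Siglech* lies at -0.87 in FIRE -/- and 2.03 in FIRE +/+ mice and *Cd33* at -2.39 and 0.18, whereas the genotypes lie close together for the sialyltransferases.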

How the data were processed

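The arrays were of the Affymetrix Mouse Gene ST type. The deposited table holds log2 values that the authors computed with RMA. Its version and settings are not given in the sources used here. Gene symbols came from the platform annotation: 21218 of 35556 clusters had 1 symbol and were tested, 1881 had several and 12457 were unnamed. Values ran from 0.5 to 12.99 and array medians from 4.29 to 4.46. Fits used lmFit and eBayes of limma 3.58.1 (R 4.3.3), two-sided, by genotype within a tissue, by tissue within a genotype, and on all 12 arrays for the difference of genotype differences. There was no filter and no covariate. The study names an analysis of variance, which was run without moderation as an alternative, as were other shrinkage, scaling, filters, covariates and single arrays left out. The number of arrays limits the precision. The scripts were tested on simulated data.

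Members and gene lists were chosen with earlier results of these data known. Named genes are the members, the other measured Siglecs, from each list described at most the 4 genes that differed most, genes that define a list or set a limit, and the genes most alike to a member. Of 146 listed symbols 12 had no cluster of their own. Promoter windows of RefSeq were searched for GAGGAA on both strands.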

Additional observations from a re-analysis of the deposited data

Results flagged for a closer look

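The genotype difference of *Siglech*, FIRE -/- minus FIRE +/+, differed between hippocampus and ileum by -2.89 (SE 0.23, limma adjusted p = 0.000269), in a test of the difference itself on all 12 arrays. In hippocampus all 3 FIRE -/- arrays lay below all 3 FIRE +/+ arrays, and in ileum the genotypes overlapped. FIRE +/+ ileum read 3.76, 4.28 and 3.57, a signal at which the fall seen in hippocampus could not have shown. Leaving out each of the 12 arrays gave -3.1 to -2.74, and without D09 and F09 it was -3.11. The DAP12 gene *Tyrobp* differed by -2.29. Microglia markers moved with *Siglech* in hippocampus and their part in it was not tested.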

How the results depend on the processing

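The fall of *Siglech* in hippocampus, its difference between tissues in either genotype and the test of its genotype difference between tissues held under every alternative that kept it. A filter on dim clusters removed all 6 members except *Siglecf* in ileum, so that their counts became 0 in hippocampus, 0 between tissues in FIRE -/- mice, 0 and 0 (lower and higher) in FIRE +/+ mice, and 0 for the genotype difference between tissues. The members called lower in hippocampus numbered 1 without moderation, 1 with all 12 arrays in 1 fit, 1 with the array code as covariate, and 1 to 2 with single arrays left out, *Siglece* being the one lost. The tissue counts of lower members ran from 5 to 6 in FIRE -/- and 1 to 4 in FIRE +/+ mice with single arrays left out. Small differences changed sign. In hippocampus *Siglecf* was 0.03 after a second quantile normalization, 0.02 with sex as covariate and -0.1 to 0.02 with arrays left out, and *Cd22* was -9.6e-05 with sex, -0.21 with the array code and -0.07 to 0.19. The sex covariate was the labelled sex, so B09 entered it as female. In ileum, with arrays left out, *Siglecf* ran from -0.14 to 0.14, *Siglece* from -0.12 to 0.54, *Siglecg* from -0.19 to 0.4, *Cd22* from -0.56 to 1.39 and *Cd33* from -0.21 to 0.37. *Cd33* between tissues in FIRE +/+ mice ran from -0.13 to 0.45. In the test of the genotype difference between tissues *Siglecf* ran from -0.16 to 0.11 and *Cd22* from -1.33 to 0.62. Over single genes 465 alternative values kept direction and call, 30 lost the call, 1 gained it and 26 changed sign; the causes were not tested. No member has a further cluster, so that alternative gave no value. No paired analysis was possible because the labels number no replicates and do not say which arrays share a mouse. Without B09, whose labelled sex its transcripts did not match, *Siglech* was -2.49 and *Siglece* -1.04 in hippocampus. Signals in the range of genes that a tissue lacks limit *Siglec1*, *Siglecf*, *Siglece*, *Siglecg* and *Cd22* in hippocampus of both genotypes. The same limit holds for *Siglech* and *Cd33* in FIRE -/- hippocampus. No such range was set for ileum. By the range of hippocampus the limit would hold for *Siglech* in ileum, *Siglec1* in FIRE +/+ ileum and *Siglecg* in FIRE -/- ileum. It would also hold for some ileum arrays of *Siglec1*, *Siglece*, *Siglecg* and *Cd22* beyond these.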
